A study of Mus musculus with 38 samples.

Results

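Fos, Jun, Junb, Egr1, Nr4a1, Btg2, Klf6, Ier2, Dusp1 and Zfp36 are immediate early genes, and their mRNA was followed in mouse liver across fasting, refeeding and a glucose load, with and without the hepatocyte insulin receptor. The 10 genes were listed by name. Each was represented by the array feature with the highest mean, and together they are 10 of the 22485 genes measured.

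The arrays measured liver RNA of single mice, all male, 11 to 12 weeks old and of mixed strain (FVB/N-C57Bl/6). All groups carried floxed alleles. The controls were IR floxed mice, in which the insulin receptor gene Insr is floxed, and IR/FoxO1 floxed mice, in which Insr and the transcription factor gene Foxo1 are both floxed. In LIRKO mice albumin-Cre deleted the insulin receptor, and in LIRFKO mice it deleted the receptor and FoxO1 together. Albumin-Cre acts mainly in hepatocytes. How far other cells of the liver keep both genes was not measured in this bulk RNA. Mice were killed fasted (a 24 h fast by the sample descriptions, overnight by the protocol), 6 h after refeeding, or 60 min after glucose. The 11 groups held 3 or 4 mice each, 37 in all. Fasted, refed and glucose groups had 4, 4 and 3 IR floxed mice, 3, 4 and 3 LIRKO mice, and 3, 4 and 3 LIRFKO mice. The IR/FoxO1 floxed controls had 3 fasted and 3 refed mice and no glucose group.

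Immediate early genes are transcribed within minutes of a stimulus, without new protein synthesis, by factors such as SRF with its ternary complex partners, CREB and AP-1 that are already in the cell. Growth factors, cytokines, stress, glucagon and feeding all reach these genes in liver. Many of their transcripts carry AU-rich elements and are degraded quickly. Fos, Jun and Junb encode subunits of AP-1. Egr1 and Klf6 encode zinc finger transcription factors, and Nr4a1 an orphan nuclear receptor that glucagon and cAMP induce in hepatocytes. Btg2 encodes an antiproliferative partner of the CCR4-NOT deadenylase, Ier2 a nuclear protein, Dusp1 a phosphatase that inactivates MAP kinases, and Zfp36 the protein tristetraprolin, which binds AU-rich elements and promotes mRNA decay.

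Values are log2 intensities, so a difference of 1 is a doubling. Fitted differences come from limma with dye as a term and array as a block, and can depart slightly from a difference of plain group means. A gene was called where its p, adjusted by Benjamini-Hochberg over all 22485 genes of a comparison, was under 0.05. The mean levels of Fos (6.02) and Junb (5.65) lay below the median gene (6.17), at the 47.4th and 38.6th percentiles. No detection calls were used, so how far these 2 features rose above background is not known. Hepatocyte markers averaged 14.8 to 15.4 in the 11 groups, near the top of the range, as the tissue label states. Alb, Serpina1a and Cyp2e1 of that list reached the top of that range in some mice. In bulk liver, fewer cells of a type and less RNA per cell cannot be told apart.

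The library labelled IRF.fl_Fast_523, a fasted IR/FoxO1 floxed control, stood apart from its group in the deleted genes. Its Foxo1 level was 6.77, against 10.6 and 10.2 in its group mates and 6.81 to 7.12 in fasted LIRFKO mice. Its Insr level was 6.90, against 8.27 and 8.14 in its group mates. No member was called in any comparison with this group, with or without that mouse, and the values without it are given beside the results. The sample titled IRF.KO_GTT_724 was left out, because its title and its treatment label disagree.

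Nr4a1, Klf6 and Btg2 varied most between groups relative to the spread among mice. The SD of the group means was 1.94 times the SD within groups for Nr4a1, 1.94 times for Klf6 and 1.47 times for Btg2. Over all genes this ratio had a median of 0.692 and a 95th percentile of 1.48. Jun and Dusp1 were each at 1.16 and Ier2 at 1.07. Junb (0.912), Zfp36 (0.856), Fos (0.756) and Egr1 (0.626) had group means that were closer together than their mice. Fasted LIRKO was the highest of the 11 groups for 7 members, namely Fos, Junb, Egr1, Nr4a1, Btg2, Klf6 and Ier2. Jun was highest in glucose LIRKO, Dusp1 in glucose IR floxed and Zfp36 in fasted IR floxed mice.

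**Figure D1:**
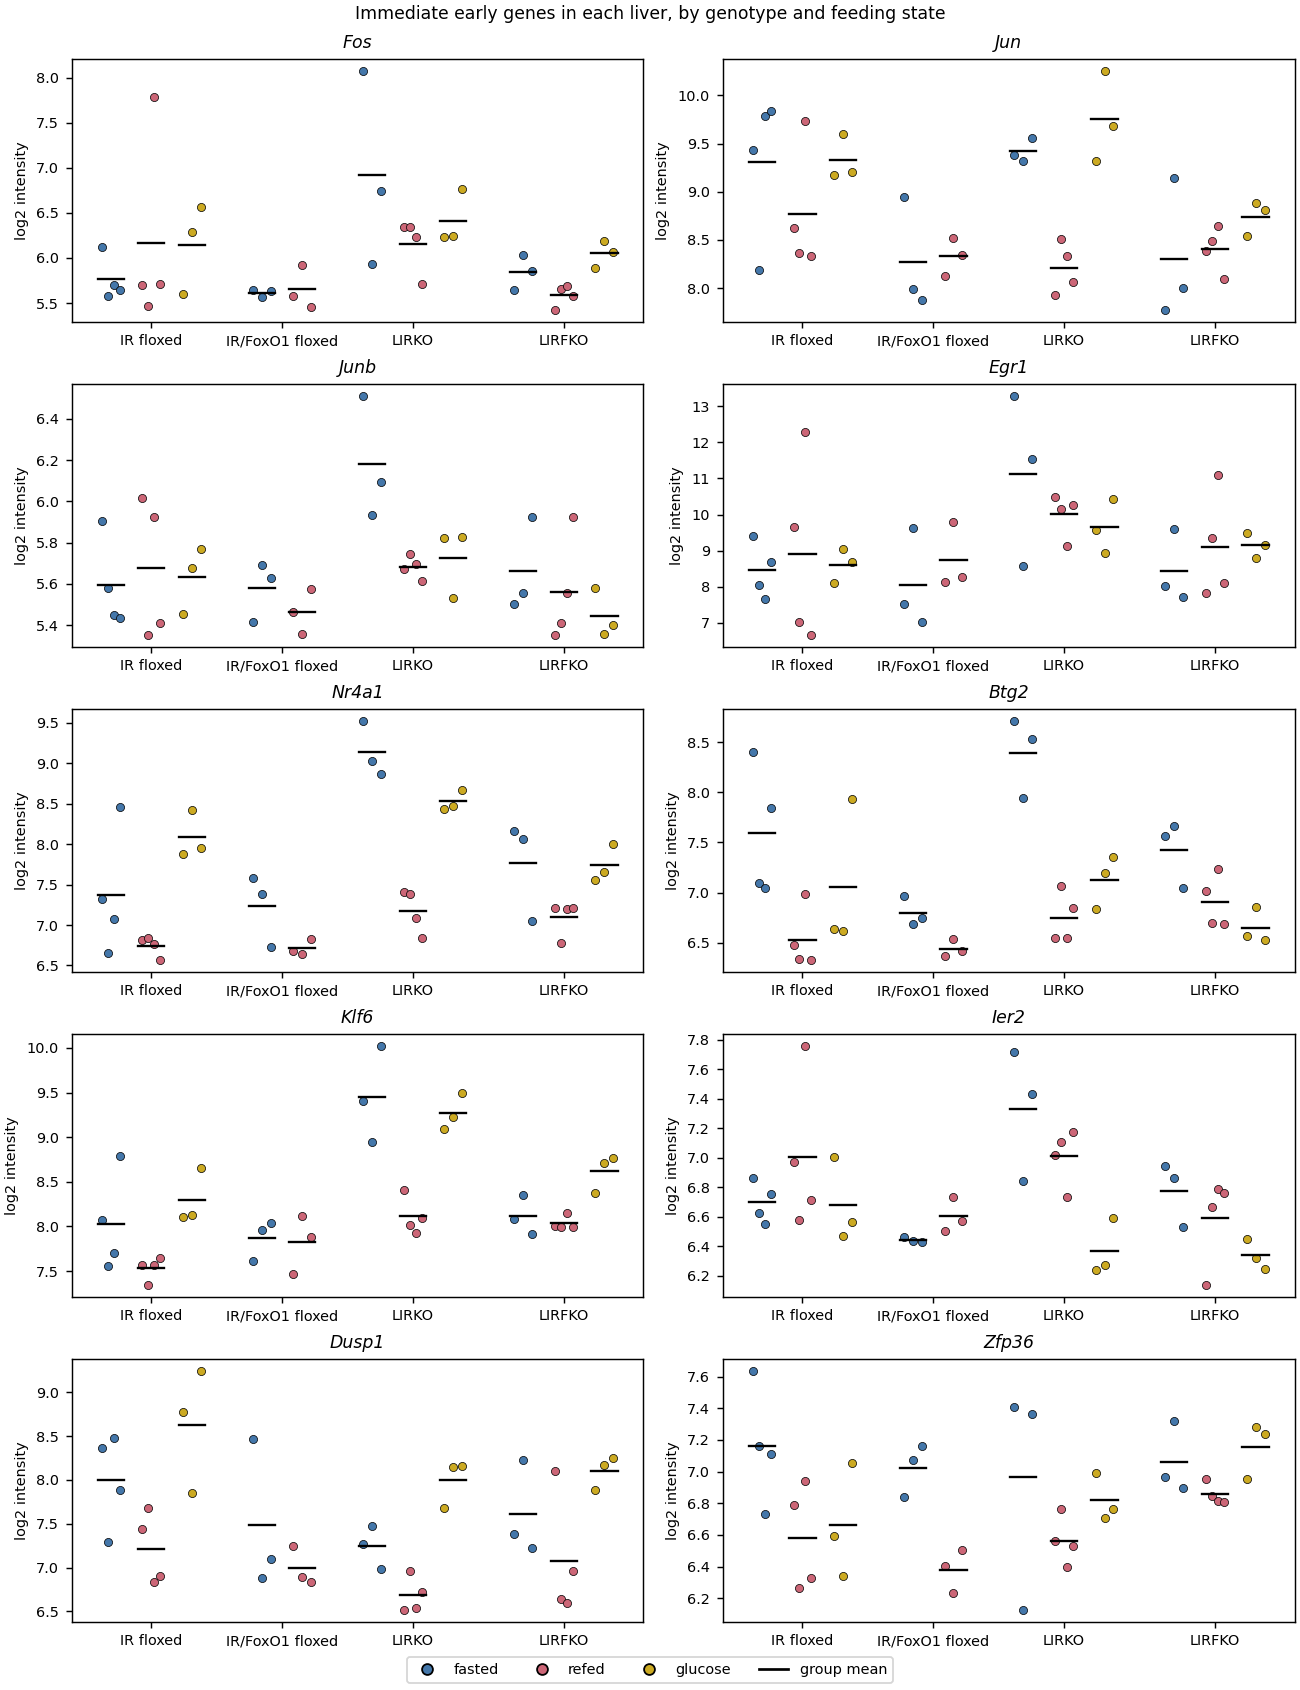
Log2 intensity of each of the 10 immediate early genes (one panel per gene) in every mouse, by genotype along the x axis and by feeding state in colour, with a black line at each group mean. The 3 fasted LIRKO mice lie at 8.87 to 9.52 for Nr4a1, above every other mouse, while for Egr1 they spread from 8.58 to 13.3.

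The promoters of the members that changed with feeding are shown because stretches similar to the binding motifs of CREB, ATF and AP-1 recur in them. Each runs 5′ to 3′ on the gene's own strand, from upstream of the RefSeq start to shortly after it. Capitals mark matches, on either strand, to TGACGTCA, to TGACNTCA, to TGCGTCA and to the shorter TGACG. The first is a case of the second, and both TGACGTCA and TGCGTCA contain the shorter motif. The sequences are RefSeq's and carry the build of its table, since the build of the array design is not given in the sources used here.
Nr4a1 (GRCm38.p6, chr15:101266596-101266895, plus strand): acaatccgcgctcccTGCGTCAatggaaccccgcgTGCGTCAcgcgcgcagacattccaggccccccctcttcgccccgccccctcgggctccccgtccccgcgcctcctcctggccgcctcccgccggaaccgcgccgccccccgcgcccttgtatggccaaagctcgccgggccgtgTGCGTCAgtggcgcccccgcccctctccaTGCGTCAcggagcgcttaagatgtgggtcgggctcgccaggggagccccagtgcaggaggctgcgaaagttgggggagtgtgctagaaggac
Btg2 (GRCm38.p6, chr1:134079106-134079405, minus strand): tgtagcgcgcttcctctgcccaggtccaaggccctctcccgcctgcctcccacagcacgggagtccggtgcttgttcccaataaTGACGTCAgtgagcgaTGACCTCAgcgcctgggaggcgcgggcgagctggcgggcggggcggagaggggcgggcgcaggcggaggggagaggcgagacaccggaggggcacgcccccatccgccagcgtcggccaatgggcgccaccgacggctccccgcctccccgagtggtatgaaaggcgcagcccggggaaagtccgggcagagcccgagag
Klf6 (GRCm38.p6, chr13:5861239-5861538, plus strand): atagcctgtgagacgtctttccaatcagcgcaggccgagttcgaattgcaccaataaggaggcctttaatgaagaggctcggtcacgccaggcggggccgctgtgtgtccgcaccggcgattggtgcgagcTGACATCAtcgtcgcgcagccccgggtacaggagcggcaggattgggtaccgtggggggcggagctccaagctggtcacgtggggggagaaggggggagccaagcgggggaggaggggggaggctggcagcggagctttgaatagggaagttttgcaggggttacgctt
Jun (GRCm38.p6, chr4:95052173-95052472, minus strand): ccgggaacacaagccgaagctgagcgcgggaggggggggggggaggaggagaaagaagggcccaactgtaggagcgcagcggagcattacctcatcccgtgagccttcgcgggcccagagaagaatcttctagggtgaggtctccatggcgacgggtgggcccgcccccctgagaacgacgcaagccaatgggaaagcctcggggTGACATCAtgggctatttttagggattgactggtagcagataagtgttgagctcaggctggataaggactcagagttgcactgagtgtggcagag
Dusp1 (GRCm38.p6, chr17:26508423-26508722, minus strand): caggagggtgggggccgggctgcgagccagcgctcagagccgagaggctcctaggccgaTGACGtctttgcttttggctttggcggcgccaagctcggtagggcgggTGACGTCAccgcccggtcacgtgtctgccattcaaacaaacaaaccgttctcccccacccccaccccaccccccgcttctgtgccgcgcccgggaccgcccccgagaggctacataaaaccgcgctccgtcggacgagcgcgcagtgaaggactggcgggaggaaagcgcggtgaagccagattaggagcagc
Promoters were read for 8 of the 10 members. Ier2 had no promoter entry in the sources used, and Egr1 was left out of the motif search. The counts of members below, that of the CArG box included, therefore do not cover Egr1 or Ier2. TGACNTCA occurred in 4 of these 8 (Jun, Btg2, Klf6 and Dusp1) and in 8.97% of 27025 mouse promoters of the same length. The full palindrome TGACGTCA was in Btg2 and Dusp1 and in 1.88% of all promoters. Nr4a1 held TGCGTCA 4 times, with its leftmost base at -235, -215, -71 and -42 from the start, and 2.19% of promoters held it at all. TGACG was in 5 of 8 members and in 21.0% of promoters. GGGCGG, the core of the GC box, was in 7 of 8 and in 35.9%. A CArG box, the motif of SRF, was found in Zfp36 of these 8 and in 1.57% of all promoters. These are matches of letters and not measured binding. Only the short stretch around each start was read, so motifs farther away were not counted.

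In the fasted state, which asks what loss of the hepatocyte insulin receptor does before food arrives, 5 of the 10 members were higher in LIRKO than in IR floxed mice and none was lower. Over all genes 4.14% were called higher in this comparison. The median difference of the members was 0.69, against 0.00308 for all genes. Nr4a1 and Klf6 led, and Junb, Fos and Ier2 followed.

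Nr4a1 read 9.52, 9.02 and 8.87 in the fasted LIRKO mice, and 7.32, 6.65, 7.07 and 8.46 in the fasted IR floxed mice. The groups did not overlap, although 1 control (IR.fl_Fast_552) read close to the lowest LIRKO mouse. The fitted difference was 1.84 ± 0.25 (SE), a 3.59-fold excess, with an adjusted p of 1.98e-05 in limma. Within the 2 slides that held both groups, with 1 mouse of each, the differences were 2.22 and 2.21. Within-slide differences, here and below, are not corrected for dye. In the second pair the LIRKO mouse was in Cy5 and the control in Cy3, and the fitted Cy5 excess of Nr4a1 was 0.30.

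Klf6 read 9.40, 8.94 and 10.02 in fasted LIRKO mice and 8.07, 7.56, 7.70 and 8.79 in the controls, again without overlap. It rose by 1.44 ± 0.21 (2.70-fold, limma adjusted p = 6.07e-05). The 2 within-slide differences of Klf6 were 2.46 and 1.33. Leaving out any of the 7 mice kept both the Nr4a1 and the Klf6 call, with adjusted p no higher than 0.00134 and 0.00164. Fitted on the 2 compared groups alone, both missed the threshold, at 0.0552 and 0.105.

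The Fos, Junb and Ier2 calls were all lost without IR.KO_Fast_505. Fos read 8.07 in IR.KO_Fast_505 but 5.93 and 6.75 in the other fasted LIRKO mice, and 6.12, 5.58, 5.71 and 5.64 in the controls, so the groups overlapped. Its difference of 1.23 ± 0.36 had a limma adjusted p of 0.0334, and without that mouse it was 0.57 with an adjusted p of 0.536. Junb (6.51, 5.93 and 6.09 against 5.91, 5.58, 5.45 and 5.43) differed by 0.61 ± 0.14 with a limma adjusted p of 0.00531, and by 0.37 with 0.191 without IR.KO_Fast_505. For Ier2 the difference of 0.64 ± 0.20 (limma adjusted p = 0.0438) became 0.39 (0.439). Leaving out any of IR.KO_Fast_550, IR.fl_Fast_486, IR.fl_Fast_491, IR.fl_Fast_542 and IR.fl_Fast_552 also ended both calls, at adjusted p of 0.0503 to 0.0875 for Fos and 0.0562 to 0.137 for Ier2.

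Egr1 showed the widest spread of the members here. The 3 fasted LIRKO mice read 13.3, 8.58 and 11.5 and the 4 controls 9.42, 8.04, 7.66 and 8.70, so that 1 LIRKO mouse lay inside the control range. Its difference of 2.94 ± 1.0 was the largest of any member in this comparison but did not pass the test (limma adjusted p = 0.0743). Jun, at 9.32 to 9.56 in LIRKO and 8.19 to 9.84 in controls, differed by 0.22 ± 0.36. Btg2 (0.74, adjusted p = 0.0904), Dusp1 (-0.68, 0.236) and Zfp36 (-0.18, 0.735) did not pass in limma.

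Part of the group lay lower in fasted LIRFKO than in fasted LIRKO liver. Between the 2 knockouts, FoxO1 loss cannot be told apart from a difference between the floxed lines. Against fasted LIRKO, 4 members fell in fasted LIRFKO mice and none rose, where 3.23% of all genes were called lower. The median difference of the members was -1.03, against 0.00261 for all genes. Klf6 read 8.08, 8.36 and 7.91 in LIRFKO mice, all below the lowest LIRKO value of 8.94. It fell by 1.49 ± 0.22 (2.82-fold, limma adjusted p = 9.19e-05). Nr4a1 read 8.17, 8.06 and 7.06 and fell by 1.40 ± 0.26 (2.64-fold, limma adjusted p = 0.00124), also without overlap. Both calls held with any 1 mouse left out, and on the 2 compared groups alone the adjusted p was 0.0359 for Nr4a1 and 0.148 for Klf6.

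Btg2 fell by 0.95 ± 0.28 (7.56, 7.67 and 7.04 in LIRFKO against 8.71, 7.94 and 8.53 in LIRKO; limma adjusted p = 0.0420). Junb fell by 0.47 ± 0.14 (limma adjusted p = 0.0468). The Btg2 and Junb calls each ended on leaving out any of 4 mice. For Btg2 these were IRF.KO_Fast_518 (adjusted p = 0.167), IRF.KO_Fast_525 (0.179), IR.KO_Fast_505 (0.103) and IR.KO_Fast_550 (0.262), and for Junb IRF.KO_Fast_519 (0.128), IRF.KO_Fast_518 (0.228), IR.KO_Fast_505 (0.345) and IR.KO_Fast_550 (0.108). Jun differed by -1.21 ± 0.39, with 7.78, 9.14 and 8.004 in LIRFKO mice, all below the LIRKO mice, but its adjusted p was 0.0588. The only slide with both groups gave -1.94 for Klf6, -0.702 for Nr4a1 and -0.970 for Btg2, with 1 mouse of each. There the LIRFKO mouse was in Cy5 and the LIRKO mouse in Cy3. This comparison and the preceding one share the 3 fasted LIRKO mice, so their opposite signs are not independent observations.

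The comparison of fasted LIRFKO with their own IR/FoxO1 floxed controls shares no mouse with the LIRKO comparison. None of the 10 members was called, and none had an unadjusted p under 0.05 in limma; of all genes 0.00445% were called. Though not called, Btg2 (7.04 to 7.67 against 6.69 to 6.96) and Ier2 (6.526 to 6.945 against 6.425 to 6.461) were higher in LIRFKO mice without overlap. The Nr4a1 difference was 0.38 ± 0.28 and the Klf6 difference 0.06 ± 0.23. Without IRF.fl_Fast_523 they were 0.47 ± 0.31 and 0.11 ± 0.26, and still no member was called or had an unadjusted p under 0.05 (0.04% of all genes called). The 2 control genotypes were also compared, with 0 of 10 members called by limma in fasted and 0 of 10 in refed mice (2 and 0 at unadjusted p under 0.05; 0.0356% and 0.0845% of all genes called). Without IRF.fl_Fast_523 the fasted comparison had 0 of 10 called in limma and 1 at an unadjusted p under 0.05 (0.00889% of all genes called). The fitted differences, IR/FoxO1 floxed minus IR floxed, were then negative for 9 of 10 members, with a median of -0.15. Fasted Btg2 averaged 7.60 in IR floxed and 6.80 in IR/FoxO1 floxed mice (6.855 without IRF.fl_Fast_523), without overlap. Fasted Jun averaged 9.31 and 8.27 (8.41 without that mouse), with overlap.

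**Figure D2:**
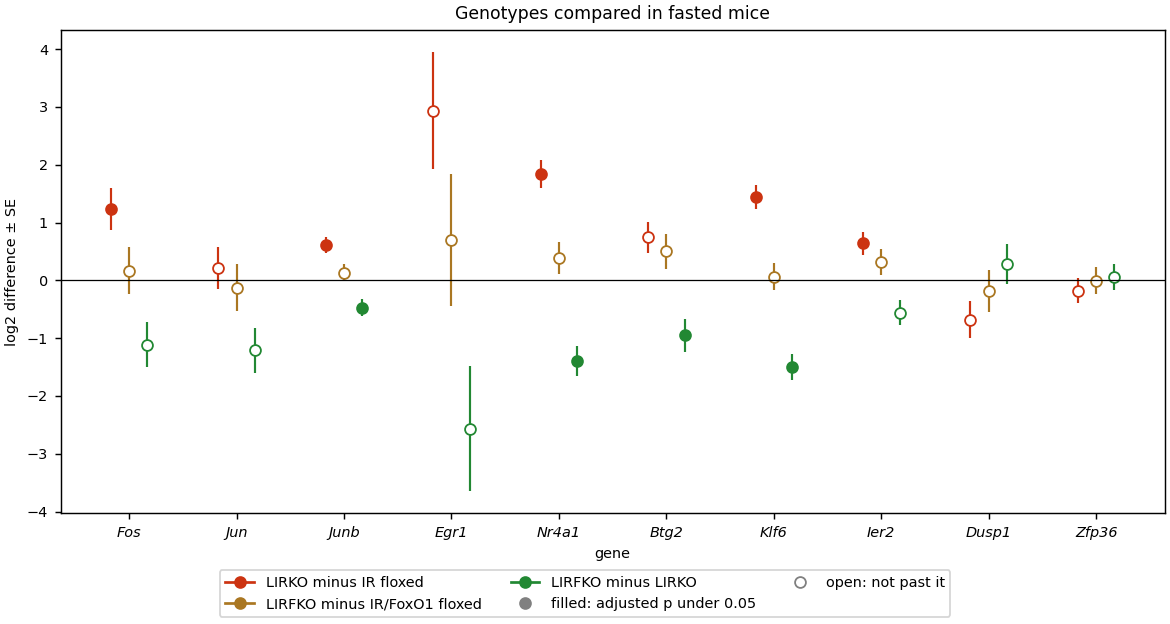
Fitted log2 difference with its SE for the 10 immediate early genes in fasted mice, for LIRKO minus IR floxed, LIRFKO minus IR/FoxO1 floxed and LIRFKO minus LIRKO. Filled points passed an adjusted p of 0.05; Nr4a1 lies at 1.84, 0.38 and -1.40 and Klf6 at 1.44, 0.06 and -1.49.

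Other values differed between the same fasted groups. The mean of 11 Kupffer cell and macrophage markers ran from 8.68 to 9.03 in fasted LIRKO, from 8.32 to 8.66 in fasted IR floxed and from 8.25 to 8.89 in fasted LIRFKO mice. All 11 had a higher fitted level in LIRKO than in IR floxed mice, with 0 called by limma and 2 at an unadjusted p under 0.05. Their part in the member differences was not tested. Of 11 glucocorticoid-induced genes, a list that includes Dusp1, 2 were called lower in fasted LIRKO, Fkbp5 (-0.81) and Tsc22d3 (-1.23). Of 6 hepatocyte genes 1 was called, Ttr (-1.06), which encodes transthyretin.

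Refeeding lowered 4 of the 10 members in LIRKO liver (Nr4a1, Btg2, Klf6 and Jun), and all 10 fitted changes were negative. Over all genes 0.867% were called lower in this comparison. The median change of the members was -1.13, against -0.00183 for all genes. The same 3 fasted LIRKO mice enter this comparison. Every refed LIRKO mouse had a higher mouse number than every fasted one. Refeeding and whatever that difference in number stands for therefore cannot be told apart in LIRKO mice.

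Nr4a1 went from 9.52, 9.02 and 8.87 in fasted to 7.41, 7.38, 7.08 and 6.84 in refed LIRKO mice, more than 1 log2 unit apart at the nearest. It fell by 1.95 ± 0.26 (3.86-fold, limma adjusted p = 0.000106). Within the 2 slides holding both groups, the differences were -2.18 and -2.14. Leaving out any 1 of the 7 mice gave changes from -2.07 to -1.84.

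Btg2 read 8.71, 7.94 and 8.53 in fasted and 6.55, 7.06, 6.55 and 6.85 in refed LIRKO mice. It fell by 1.62 ± 0.28 (3.08-fold, limma adjusted p = 0.00184), and by 1.09 and 1.65 within the 2 slides. Klf6 went from 9.40, 8.94 and 10.02 to 8.41, 8.01, 7.93 and 8.10, and fell by 1.40 ± 0.22 (2.64-fold, limma adjusted p = 0.000597). The groups of both genes were apart, and both calls held with any 1 mouse left out, at adjusted p no higher than 0.0188 and 0.0109. On the 2 compared groups alone, Klf6 had an adjusted p of 0.0907.

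Jun read 9.39, 9.32 and 9.56 in fasted and 7.93, 8.52, 8.33 and 8.06 in refed LIRKO mice. Its groups too were well apart, and it fell by 1.43 ± 0.38 (2.70-fold), but at a limma adjusted p of 0.0486. Leaving out any 1 of the 7 mice moved the adjusted p to between 0.0634 (without IR.KO_Refed_564) and 0.193 (without IR.KO_Fast_550), and ended the call. The slide values of Jun were -1.26 and -0.870. In 6 of the 10 members the refed LIRKO mice lay wholly below the fasted ones, a pattern shared by 6.06% of all genes; Junb and Dusp1 were the other 2.

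Egr1, by contrast, had refed LIRKO values (10.5, 10.2, 9.14 and 10.3) that fell inside the fasted range, and its change of -1.34 ± 1.1 had a limma adjusted p of 0.723. Fos (-0.93, adjusted p = 0.282), Junb (-0.44, 0.136), Ier2 (-0.31, 0.634), Dusp1 (-0.64, 0.481) and Zfp36 (-0.39, 0.522) did not pass in limma.

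In the other genotypes refeeding moved fewer members past the test. Mouse numbers of fasted and refed mice overlapped in IR floxed and in LIRFKO mice. Refed IR/FoxO1 floxed mice all had lower numbers than the fasted ones, so state and number cannot be told apart there. In IR floxed mice 1 of 10 fell, Btg2, from 8.40, 7.10, 7.05 and 7.84 to 6.48, 6.34, 6.98 and 6.33; over all genes 1.49% were called lower. Its change was -0.92 ± 0.25 (limma adjusted p = 0.0342). That call ended without IR.fl_Fast_552 (adjusted p = 0.0843), IR.fl_Refed_566 (0.109), IR.fl_Refed_508 (0.0839), IR.fl_Refed_506 (0.0771) or IR.fl_Fast_486 (0.147), the last being the mouse with the highest fasted Btg2. Nr4a1 changed by a fitted -0.58 ± 0.23 (adjusted p = 0.193), with 1 fasted mouse at 8.46 and the refed mice all between 6.57 and 6.84.

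In IR/FoxO1 floxed mice limma called 0 of 10 members (2 at an unadjusted p under 0.05; 3.54% of all genes called), with Nr4a1 at -0.68 ± 0.26 and Zfp36 at -0.58 ± 0.22. Without IRF.fl_Fast_523 these were -0.56 and -0.56, again with no call in limma (2 at an unadjusted p under 0.05; 2.05% of all genes called). In LIRFKO mice limma called 0 of 10 (1 at an unadjusted p under 0.05; 1.81% of all genes called). Nr4a1 changed by -0.59 ± 0.24 there, and Klf6, at 7.91 to 8.36 fasted and 7.99 to 8.15 refed, by -0.02 ± 0.20.

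**Figure D3:**
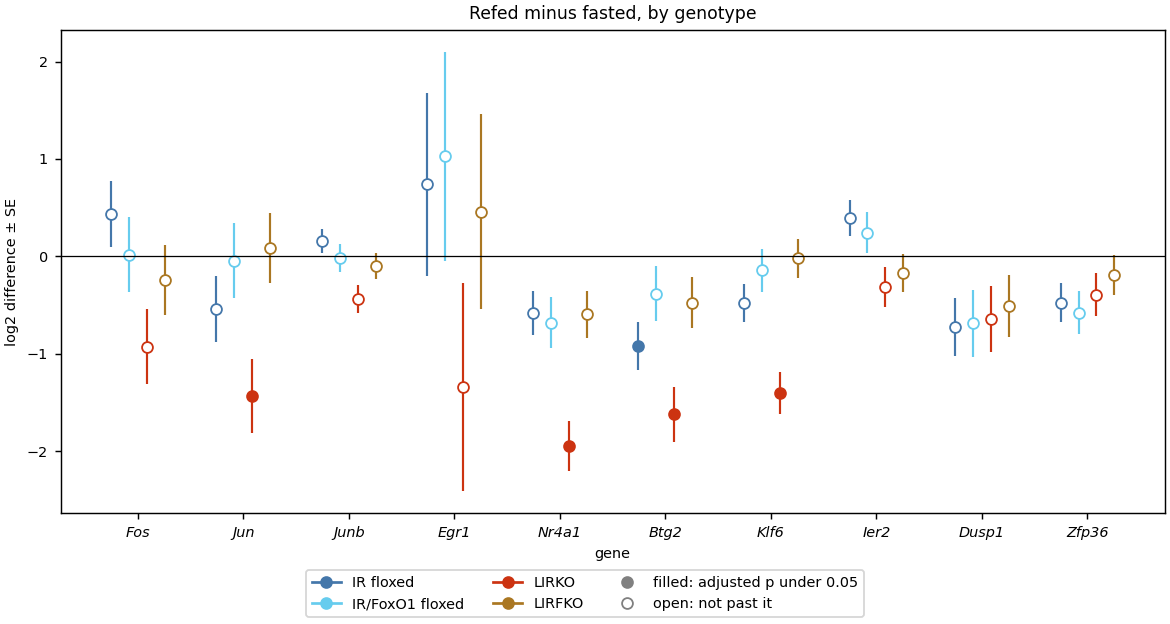
Fitted log2 change from fasted to refed, with its SE, for the 10 immediate early genes in the 4 genotypes. Filled points passed an adjusted p of 0.05; the LIRKO points lie at -1.95 for Nr4a1, -1.62 for Btg2, -1.43 for Jun and -1.40 for Klf6, and the LIRFKO points of Nr4a1 and Klf6 at -0.59 and -0.02.

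Whether these responses differed between genotypes was tested directly, and no member passed. For LIRKO against IR floxed, limma called 0 of 10 members (5 at an unadjusted p under 0.05; 0.165% of all genes called). Nr4a1 came nearest, with a response that differed by -1.37 ± 0.33 (adjusted p = 0.0907). For LIRFKO against LIRKO it called 0 of 10 (4 at an unadjusted p under 0.05; 0.0222% of all genes), with Klf6 at 1.38 ± 0.28 (adjusted p = 0.107) and Nr4a1 at 1.35 ± 0.34 (0.284). For LIRFKO against IR/FoxO1 floxed mice, 0 of 10 were called and 0 had an unadjusted p under 0.05 (0.00445% of all genes). Between the control genotypes, limma called 0 of 10 members, also with 0 at an unadjusted p under 0.05 (0.00445% of all genes). Without IRF.fl_Fast_523 these last 2 tests again gave 0 of 10 in limma, with 0 at an unadjusted p under 0.05.

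In the refed state itself no member was called between genotypes. Mouse numbers did not overlap between refed LIRFKO and refed LIRKO mice, or between the refed control genotypes. Genotype and number cannot be told apart in those comparisons. LIRKO against IR floxed gave 0 of 10 calls in limma (2 at an unadjusted p under 0.05; 11.6% of all genes called), with Nr4a1 at 6.84 to 7.41 in LIRKO and 6.57 to 6.84 in IR floxed mice. Klf6 was at 7.93 to 8.41 in refed LIRKO and 7.35 to 7.65 in refed IR floxed mice, without overlap, and its difference of 0.51 ± 0.19 had an adjusted p of 0.0867. LIRFKO against LIRKO gave 0 of 10 (1 at an unadjusted p under 0.05; 8.09% of all genes), and LIRFKO against IR/FoxO1 floxed 0 of 10 (0 at an unadjusted p under 0.05; 0.378% of all genes).

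On refeeding in LIRKO mice 1 of the 11 Kupffer cell and macrophage markers rose, Lyz2 (0.67), and all 11 fitted changes were positive. Their mean ran from 8.68 to 9.03 in fasted and from 9.32 to 9.47 in refed LIRKO mice. Against refed IR floxed mice (7.96 to 8.24), 10 of these 11 markers were higher in refed LIRKO mice. Lrat, from a list of 7 stellate and fibroblast markers, rose on refeeding in LIRKO (1.06) and LIRFKO mice (0.71). The mean of that list ran from 7.46 to 7.56 in fasted and from 7.44 to 7.65 in refed LIRKO mice. The 6 hepatocyte markers all had negative fitted changes on refeeding in LIRKO mice (median -0.46), with 0 called in limma and 2 at an unadjusted p under 0.05, and their mean ran from 15.1 to 15.3 fasted and from 14.1 to 15.1 refed. All 11 glucocorticoid-induced genes had negative fitted changes on refeeding in each of the 4 genotypes, except that without IRF.fl_Fast_523 there were 10 of 11 in IR/FoxO1 floxed mice. In LIRKO 4 of 11 fell, Per1 (-1.96), Fkbp5 (-1.35), Mt1 and Mt2. Mt1 and Mt2 reached the top of the range in some mice, so the sizes of their changes are not given. The part of these lists in the member changes was not tested.

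At 60 min after glucose the members were compared with both fasted and refed mice. The glucose mice all have higher mouse numbers than the fasted and refed mice, so that glucose and whatever that difference in number stands for cannot be told apart. Against fasted mice, limma called 0 of 10 members in IR floxed mice (1 at an unadjusted p under 0.05; 0.16% of all genes called) and 0 of 10 in LIRFKO mice (2 at an unadjusted p under 0.05; 0.654% of all genes). In LIRKO mice 2 of 10 fell, Btg2 and Ier2, where 0.271% of all genes were called lower.

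Btg2 read 8.71, 7.94 and 8.53 in fasted and 6.84, 7.19 and 7.36 in glucose LIRKO mice, a change of -1.28 ± 0.30 (limma adjusted p = 0.0491). Ier2 read 7.72, 6.84 and 7.43 against 6.24, 6.27 and 6.59, a change of -0.94 ± 0.22 (limma adjusted p = 0.0497). Neither pair of groups overlapped. Both calls ended without IR.KO_Fast_505, IR.KO_Fast_550, IR.KO_GTT_667 or IR.KO_GTT_690, with adjusted p up to 0.217 for Btg2 and 0.352 for Ier2 without the last. Nr4a1 (-0.52, adjusted p = 0.509) and Klf6 (-0.19, 0.907) did not pass, with glucose LIRKO mice at 8.44 to 8.68 and 9.09 to 9.50. In direct tests of the glucose response, limma called 0 of 10 members for LIRKO against IR floxed (5 at an unadjusted p under 0.05; 0% of all genes called) and 0 of 10 for LIRFKO against LIRKO (1 at an unadjusted p under 0.05; 0.0578%). Of the 6 hepatocyte markers 5 had a lower fitted level in glucose than in fasted LIRKO mice (median -0.53), with 0 called in limma and 3 at an unadjusted p under 0.05. Their mean ran from 15.1 to 15.3 in fasted and from 14.5 to 15.2 in glucose LIRKO mice, and their part in the Btg2 and Ier2 changes was not tested.

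Glucose and refed mice differed more. In these comparisons a rise or fall means a higher or lower level after glucose than after refeeding, not a change from fasting. In IR floxed mice 3 of 10 members were higher after glucose and none lower (3.14% of all genes called higher). In LIRKO mice 4 were higher and 1 lower (5.87% of all genes called higher and 6.72% lower). In LIRFKO mice limma called 0 of 10 (3 at an unadjusted p under 0.05; 5.15% of all genes). The refed mice of each genotype also enter its refeeding comparison.

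Nr4a1 read 7.88, 8.42 and 7.95 after glucose in IR floxed mice, all above the refed range of 6.57 to 6.84, and rose by 1.34 ± 0.24 (limma adjusted p = 0.00114). In LIRKO mice it read 8.44, 8.48 and 8.68 against 6.84 to 7.41, and rose by 1.43 ± 0.24 (limma adjusted p = 0.000265). In LIRFKO mice it read 7.56, 7.66 and 7.999 against 6.78 to 7.21, also without overlap, but the difference of 0.65 ± 0.24 had an adjusted p of 0.128. In IR floxed mice the call ended without IR.fl_GTT_691 (0.96, adjusted p = 0.0612), while in LIRKO mice it held with any 1 mouse left out.

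Klf6 rose by 0.76 ± 0.21 in IR floxed mice (limma adjusted p = 0.0249) and by 1.21 ± 0.21 in LIRKO mice (adjusted p = 0.000266), and differed by 0.59 ± 0.20 in LIRFKO mice (adjusted p = 0.0963). The LIRKO call held with any 1 mouse left out, while the IR floxed call ended without IR.fl_Refed_508 (adjusted p = 0.171), IR.fl_GTT_699 (0.139), IR.fl_Refed_562 (0.0513) or IR.fl_GTT_691 (0.119). After glucose Klf6 read 8.11, 8.13 and 8.66 in IR floxed, 9.09, 9.23 and 9.50 in LIRKO, and 8.38, 8.71 and 8.77 in LIRFKO mice.

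Dusp1, the MAP kinase phosphatase gene, had a glucose-minus-refed difference above 1 in each of the 3 genotypes. It read 8.78, 7.85 and 9.25 after glucose and 6.84 to 7.68 after refeeding in IR floxed mice, and rose by 1.32 ± 0.32 (limma adjusted p = 0.0118). In LIRKO mice it read 7.68, 8.15 and 8.16 against 6.52 to 6.97, and rose by 1.36 ± 0.32 (limma adjusted p = 0.00498). In LIRFKO mice the difference was 1.03 ± 0.32 (adjusted p = 0.0584), where 1 refed mouse, IRF.KO_Refed_468, stood at 8.10 and the other 3 at 6.59 to 6.96. The calls ended without IR.fl_GTT_699 (1.05, adjusted p = 0.0938) and without IR.KO_GTT_690 (1.16, adjusted p = 0.102).

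Jun was higher after glucose than after refeeding in LIRKO mice, with 9.32, 10.3 and 9.68 against 7.93 to 8.52. Against fasted LIRKO mice, Jun differed by 0.29 after glucose (limma adjusted p = 0.928) and by -1.43 after refeeding. The glucose-minus-refed difference was 1.72 ± 0.36 (3.30-fold, limma adjusted p = 0.00182), and 1.76 and 1.74 within the 2 slides that held both groups. Without IR.KO_GTT_690, the mouse at 10.3, it was 1.46 with an adjusted p of 0.0584. In IR floxed mice the difference was 0.68 ± 0.36 (adjusted p = 0.342) and in LIRFKO mice 0.37 ± 0.36 (0.669). Ier2 went the other way, at 6.24 to 6.59 after glucose and 6.73 to 7.18 after refeeding in LIRKO mice. It fell by 0.63 ± 0.20 (limma adjusted p = 0.0325), and the call ended without IR.KO_Refed_558 (adjusted p = 0.158), IR.KO_Refed_565 (0.119), IR.KO_GTT_667 (0.0845) or IR.KO_GTT_690 (0.262).

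**Figure D4:**
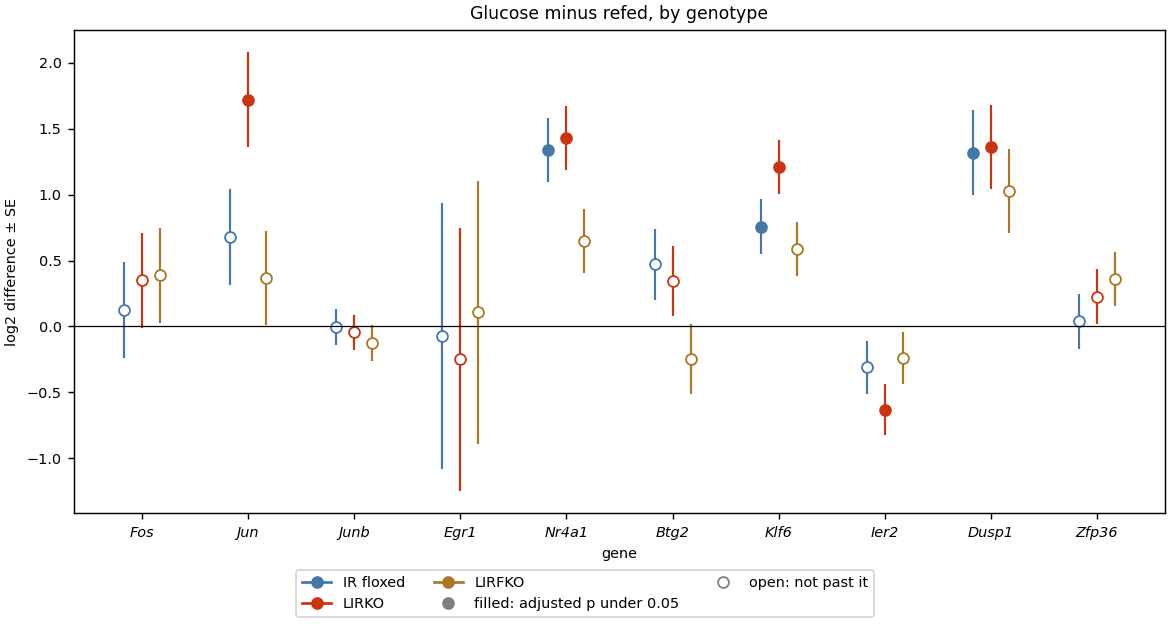
Fitted log2 difference between glucose and refed mice, with its SE, for the 10 immediate early genes in the 3 genotypes that had both groups. Filled points passed an adjusted p of 0.05; Dusp1 lies at 1.32, 1.36 and 1.03 and Nr4a1 at 1.34, 1.43 and 0.65 in IR floxed, LIRKO and LIRFKO mice.

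Between genotypes after glucose, Klf6 was the only member called between LIRKO and IR floxed mice. Its difference was 0.96 ± 0.22 (limma adjusted p = 0.0061), where 4.39% of all genes were called higher, and it held with any of the 6 mice left out but not when the 2 groups were fitted alone (0.215). Without dye correction Nr4a1 did not overlap between these groups either, at 8.44 to 8.68 in LIRKO and 7.88 to 8.42 in IR floxed mice. Its difference of 0.56 ± 0.26 had a limma adjusted p of 0.213. Other lists differed between the same groups. All 6 hepatocyte markers had a lower fitted level in glucose LIRKO mice (median -0.59), with Hnf4a (-0.51) and Ttr (-1.14) called, and their mean ran from 14.5 to 15.2 against 15.3 to 15.4. Of 11 Kupffer cell and macrophage markers 10 had a higher fitted level and 1 was called, Marco (2.23), and of 7 endothelial markers 2 were called higher, Cdh5 (0.48) and Pecam1 (0.32). Their part in the Klf6 difference was not tested. In LIRFKO against LIRKO, Klf6 fell by 0.74 ± 0.22 (limma adjusted p = 0.0380) and Nr4a1 by 0.83 ± 0.26 (0.0492), 2 of 10 where 3.73% of all genes were called lower. The Nr4a1 call ended with any of the 6 mice left out, and the Klf6 call with any but IR.KO_GTT_667. The highest adjusted p was 0.222 for Nr4a1 and 0.270 for Klf6, both without IRF.KO_GTT_725. In these glucose LIRFKO mice the mean of 7 neutrophil markers ran from 6.11 to 8.77, against 6.10 to 6.38 in glucose LIRKO mice, and its part was not tested. The glucose LIRFKO mice also all had higher mouse numbers than the glucose LIRKO mice, so genotype and number cannot be told apart there.

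Of the 11 glucocorticoid-induced genes, a list that includes Dusp1, 7 were higher after glucose than after refeeding in IR floxed, 8 in LIRKO and 5 in LIRFKO mice. Tsc22d3 rose by 1.65, 1.75 and 2.09 and Fkbp5 by 1.55, 0.93 and 0.95 in these genotypes. Kupffer cell and macrophage markers were lower after glucose in LIRKO mice, with 5 of 11 called, and 0 of 11 were called in IR floxed (1 at an unadjusted p under 0.05 in limma) or LIRFKO mice (0). Of the 7 stellate and fibroblast markers only Lrat was called there, lower after glucose in LIRKO (-1.21) and LIRFKO mice (-1.14). The mean of that list overlapped between the states. It ran from 7.35 to 7.56 after glucose and 7.44 to 7.65 after refeeding in LIRKO mice. In LIRFKO mice it ran from 7.44 to 7.66 and from 7.52 to 7.92. The part of these genes in the member differences was not tested.

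The members did not form a single pattern. Ordered by group mean, Nr4a1 was at 9.14 ± 0.34 (SD, n = 3) in fasted LIRKO, 8.53 ± 0.13 in glucose LIRKO and 8.08 ± 0.30 in glucose IR floxed mice, each apart from the next in every mouse. These values are not corrected for dye. The nearest glucose LIRKO and IR floxed values were 8.44 and 8.42, while the fitted Cy5 excess of Nr4a1 was 0.30. Then came fasted LIRFKO (7.76 ± 0.61), glucose LIRFKO (7.74 ± 0.23), fasted IR floxed (7.37 ± 0.77) and fasted IR/FoxO1 floxed (7.23 ± 0.44, or a mean of 7.15 without IRF.fl_Fast_523). The refed groups were the 4 lowest, at 7.18 ± 0.27 in LIRKO, 7.10 ± 0.21 in LIRFKO, 6.75 ± 0.12 in IR floxed and 6.72 ± 0.09 in IR/FoxO1 floxed mice. From glucose IR floxed downward, neighbours in this order overlapped.

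Klf6 followed a like order at the top, with 9.46 ± 0.54 in fasted and 9.27 ± 0.21 in glucose LIRKO mice, and glucose LIRFKO next at 8.62 ± 0.21, apart from glucose LIRKO. Its lowest group was refed IR floxed at 7.53 ± 0.13. Btg2 also peaked in fasted LIRKO (8.39), with fasted IR floxed next (7.60) and refed IR/FoxO1 floxed lowest (6.44), but each neighbouring pair of its groups overlapped. Junb was highest in fasted LIRKO (6.18), apart from the next group. For the other 6 members no neighbouring groups were apart. How often neighbouring groups were apart over all genes was not counted.

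Single mice accounted for much of the range of Fos and Egr1. IR.KO_Fast_505 was the highest of its group in 7 of the 10 members, and IR.KO_Fast_545 the lowest in 8. Among refed IR floxed mice, IR.fl_Refed_562 was highest in 6 of 10 members. It read 7.78 for Fos, where its group mates read 5.46 to 5.71, and 12.3 for Egr1, where they read 6.67 to 9.65. For Nr4a1 and Klf6 the same mouse lay inside its group, at 6.76 and 7.56. Fos was read by 10 array features, whose values had a median SD of 0.12 within a mouse, against an SD of 0.525 between mice.

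**Figure D5:**
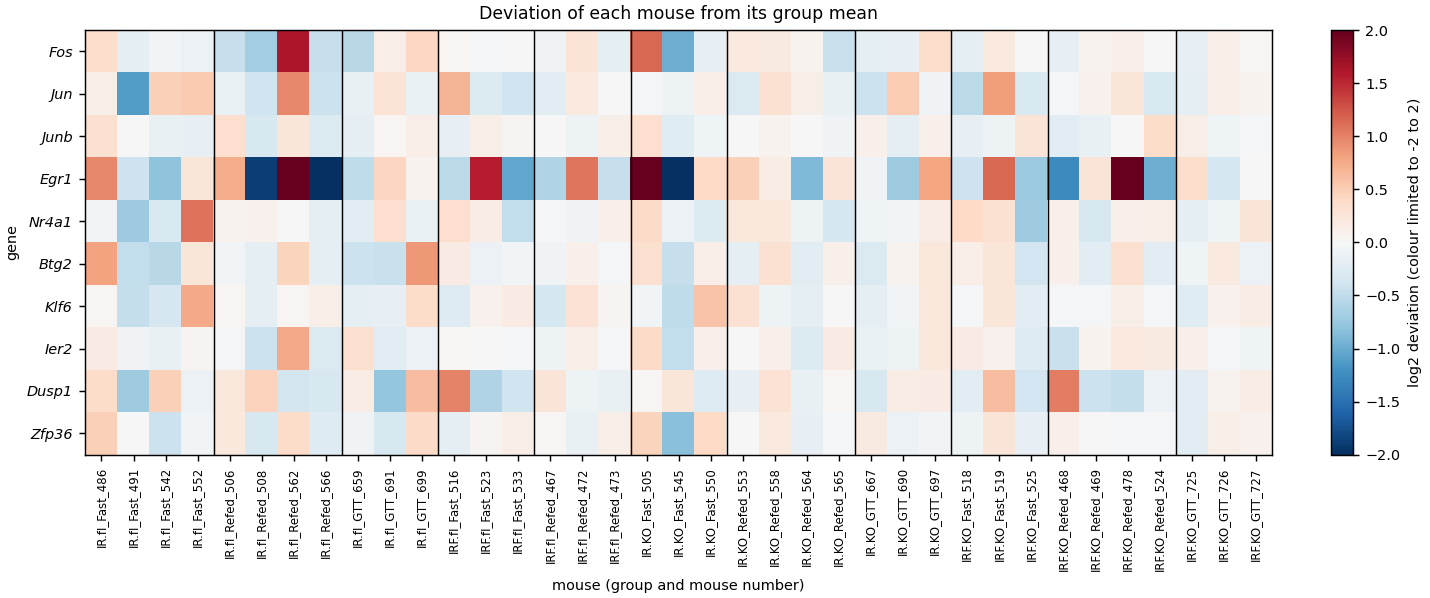
Deviation of each mouse from its group mean in log2 intensity, for the 10 immediate early genes (rows of the plot) and 37 mice (columns), with vertical lines between groups and colour limited to -2 to 2. Fos, Egr1 and Ier2 are high together in IR.KO_Fast_505 and IR.fl_Refed_562, and Egr1 has the widest deviations.

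The genes whose pattern was most like the average of the scaled members were sought among 11234 genes above the median level. Over the 11 group means these were Ttpal (r = 0.95), Qser1 (0.944), Thbd (0.936), Tbc1d8 (0.931) and Skil (0.929). The members themselves ranged on that scale from Nr4a1 (0.942) to Dusp1 (0.335). Over the 37 deviations of mice from their group means they were Steap4 (0.70), Tmc7 (0.696), H3c15 (0.679), Lysmd3 (0.661) and Jund (0.626). There Egr1 (0.82) and Btg2 (0.805) were the members closest to the average and Dusp1 (0.0983) the farthest. These are descriptions over points that share arrays and a common scaling, and no p was computed.

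A further 56 immediate early genes were measured, and their list was also made with earlier results known. In fasted LIRKO against IR floxed mice 12 of 56 rose and none fell, 21.4% of the list where 8.06% of all genes were called in either direction. They were led by Maff (2.43), Dusp6 (2.20), Klf10 (1.58) and Socs3 (1.34), which encode a small Maf protein, an ERK phosphatase, a Krüppel-like factor and a suppressor of cytokine signalling. Against LIRKO, 8 of 56 (14.3%) fell in fasted LIRFKO mice and none rose, where 6.52% of all genes were called, led by Maff (-1.69), Atf3 (-1.10), Zfp36l2 (-0.998) and Fosl2 (-0.79). Fasted LIRFKO against IR/FoxO1 floxed mice gave 0 of 56 calls in limma (3 at an unadjusted p under 0.05), and the same counts without IRF.fl_Fast_523. The list medians were 0.21, -0.34 and 0.02 in these comparisons.

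On refeeding, 9 of the 56 (16.1%) fell and none rose in LIRKO mice, where 1.85% of all genes were called, led by Ccn2 (-2.30), Plk3 (-2.15), Cebpd (-2.11) and Per1 (-1.96). In IR floxed mice 9 fell and 3 rose, 21.4% of the list against 3.61% of all genes, and the largest changes were Gadd45g (-2.23), Cebpd (-2.14), Dusp6 (1.63) and Bhlhe40 (1.48). In IR/FoxO1 floxed mice 6 fell (10.7%, against 3.54% of all genes), led by Cebpd (-2.04), Per1 (-1.80), Cebpb (-1.29) and Klf9 (-1.19). Without IRF.fl_Fast_523 there 5 fell and 1 rose, and Per1 was not called. In LIRFKO mice 2 fell (3.57%, against 1.81% of all genes), Cebpd (-1.31) and Nfkbia (-0.71). Per1, the clock gene, and Sgk1 of this list also belong to the glucocorticoid-induced list.

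After glucose, compared with refeeding, 14 of 56 rose and 2 fell in IR floxed mice (28.6%, against 6.38% of all genes), led by Gadd45b (2.56), Gadd45g (2.08), Cebpd (2.01) and Klf2 (1.83). In LIRKO mice 13 rose and 2 fell (26.8%, against 12.6% of all genes), led by Per1 (2.06), Cebpd (2.06), Plk3 (1.86) and Ccn2 (1.80). In LIRFKO mice 9 rose and 2 fell (19.6%, against 5.15%), led by Nfil3 (1.91), Gadd45b (1.55), Ccn2 (1.497) and Myc (-1.39). Against fasted mice, glucose left 0 of 56 called in IR floxed mice (15 at an unadjusted p under 0.05 in limma) and 1 in each knockout, Trib1 (-1.02 in LIRKO and -0.98 in LIRFKO mice). That is 1.79% of the list, where 0.596% and 0.654% of all genes were called.

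Between genotypes in the other states, 6 of 56 rose and 1 fell in refed LIRKO against IR floxed mice, led by Gadd45b (1.45), Per1 (-1.23), Rgs2 (0.98) and Ier3 (0.98). This share of 12.5% is near the 11.6% of all genes. After glucose 2 rose, Ier3 (0.90) and Mafk (0.76), and 1 fell, Trib1 (-0.78), which is 5.36% of the list against 8.3% of all genes. In LIRFKO against LIRKO mice 2 rose and 3 fell refed, led by Gadd45b (-1.55), Per1 (1.34), Plk3 (1.17) and Ier3 (-0.70), and this share of 8.93% is near the 8.09% of all genes. After glucose 6 fell (10.7%, against 7.57% of all genes), led by Klf10 (-1.24), Zfp36l2 (-1.08), Fosl2 (-0.94) and Mafk (-0.87).

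Of 18 genes for upstream kinases and transcription factors such as Srf, Creb1 and the MAP kinases, at most 3 (16.7%) were called in any 1 comparison. On refeeding in IR floxed mice Mrtfa (0.43), an SRF coactivator gene, rose, and Elk4 (-0.59), a ternary complex factor gene, and Crtc2 (-0.58), a CREB coactivator gene, fell, where 3.61% of all genes were called. After glucose, compared with refeeding, Crtc2 and Mrtfb rose and Map2k1 fell in IR floxed mice (0.61, 0.57 and -0.55) and in LIRKO mice (0.84, 0.77 and -0.86), where 6.38% and 12.6% of all genes were called. In fasted LIRKO against IR floxed mice 1 was lower, Mapk9 (-0.51), which encodes a JNK. That is 5.56% of the list, against 8.06% of all genes. In fasted LIRFKO against LIRKO mice Crtc2 (0.56) and Mapk9 (0.45) were higher, 11.1% of the list against 6.52% of all genes. On refeeding in LIRKO mice 0 of 18 were called in limma (5 at an unadjusted p under 0.05).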

How the data were processed

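Liver RNA (200 ng per mouse) was measured on Agilent two-colour arrays, per the labels. The values are log2 intensities, 1 per dye channel and mouse, as the authors deposited them. Their tools, per the submitters' processing notes, were limma 3.20.1 and R 3.1.0. How background and scale were corrected is not given in the sources used. The log2 scale was checked against the values.

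Samples were grouped by title. Mouse numbers were unique, so replicates are separate mice. Of 45220 features, 33026 paired with 1 gene, giving 22485 genes. The feature with the highest mean represented a gene, and no filter on level was used. In R 4.3.3, limma 3.58.1 (with statmod 1.5.0) estimated 11 group means from 37 samples, a dye term, and a correlation of 0.358 between channels of an array. 26 comparisons were tested, with p adjusted by Benjamini-Hochberg over all genes. Errors are SE for differences and SD for means. The fit was tested on simulated data. The number of mice limits the precision.

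The members and gene lists were chosen with earlier results of these data known. Named genes are all members, from the other immediate early genes up to 4 called per comparison by size, up to 2 called cell type genes per comparison, and the 5 genes most like the members' average. Members of the glucocorticoid-induced and upstream lists are named outside that rule. Alternatives dropped the array block, added slide, changed normalization, feature choice, filter or variance model, fitted only the compared groups, or left out mice.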

Additional observations from a re-analysis of the deposited data

Results flagged for a closer look

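In groups of 4 mice, 3 of 40 sets of member values had a mouse set apart by a gap that filled most of the group's range. Chance flags about 1 in 20 groups. Fos in IR.fl_Refed_562 was 7.78, and the gap of 2.07 to the next mouse was 0.895 of the range. Nr4a1 in IRF.KO_Refed_469 was 6.78, below its group by 0.42, or 0.966 of the range. Klf6 in IRF.KO_Refed_478 was 8.15, above its group by 0.15, or 0.921 of a narrow range.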

How the results depend on the processing

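No paired analysis was possible because mouse numbers are not shared between groups. Without any mouse, the number of members called ranged from 0 to 1 for refeeding in IR floxed mice, from 3 to 3 in LIRKO mice, from 0 to 3 for glucose against fasted LIRKO mice, from 1 to 3 for glucose against refed IR floxed mice, from 2 to 5 for glucose against refed LIRKO mice, from 0 to 1 for glucose against refed LIRFKO mice, from 2 to 6 for fasted LIRKO against IR floxed mice, from 1 to 1 for the same after glucose, from 2 to 7 for fasted LIRFKO against LIRKO mice and from 0 to 1 for the same after glucose. The refeeding response called 0 to 1 member in LIRKO against IR floxed and 0 to 1 in LIRFKO against LIRKO mice. In the other comparisons 0 members were called by limma without any mouse, as with all of them.

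Fitting only the compared groups, which leaves fewer mice to estimate the spread, called 0 members for refeeding in IR floxed mice, 0 for glucose against fasted LIRKO, 1 for glucose against refed IR floxed, 1 for glucose against refed LIRFKO, 0 for fasted LIRKO against IR floxed, 1 for the same refed and 0 after glucose, and 1 for fasted and 2 for refed LIRFKO against LIRKO. Without the array block, 0 members were called for glucose against fasted LIRKO, 3 for fasted LIRKO against IR floxed, 2 for fasted LIRFKO against LIRKO and 0 for the same after glucose. With slide as a block, 0 were called for refeeding in IR floxed mice and 0 for LIRFKO against LIRKO after glucose. Without IRF.fl_Fast_523, 0 were called for glucose against fasted LIRKO and 1 for LIRFKO against LIRKO after glucose. Testing only genes above the median level, which drops Fos and Junb, called 1 member for glucose against refed LIRFKO and 1 for refed LIRKO against IR floxed mice. With trend and robust settings, the refeeding response of LIRFKO against LIRKO called 1 member. The cause of these changes was not tested where none is named. The share of all genes called was not counted in these refits or in those without 1 mouse, except where given above. A loss of member calls there cannot be told from a general loss of calls.

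The limits are 3 or 4 mice per group, features without detection calls, and Fos and Junb near the bottom of the range. Mouse numbers that did not overlap between some compared groups, fasted and refed LIRKO mice among them, are another limit. Nr4a1 and Btg2 on refeeding in LIRKO mice passed under every alternative run; Klf6 passed under all but the fit of the compared groups alone (adjusted p = 0.0907).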

Other observations

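The liver whose labels conflict, IRF.KO_GTT_724, read 7.81 for Nr4a1, 8.79 for Klf6, 6.95 for Btg2, 9.03 for Jun, 7.42 for Dusp1, 6.996 for Ier2, 5.92 for Fos and 9.10 for Egr1. These values enter no comparison.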
